A study of Mus musculus with 69 samples.

Results

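The regions described here are 2445 Suz12 peaks of EZH2-mutant embryoid bodies at day 8 that lie at sites marked by H3K27me3 in wild-type cells. They were chosen by measured peak positions alone, and come from the peak list of mutant day 8 library 2, which holds 7735 peaks, by the rule that a peak shares at least 1 bp with a peak of the wild-type H3K27me3 list merged over embryonic stem (ES) cells and embryoid bodies at day 4 and day 8. The 5290 remaining peaks of the same list, all outside H3K27me3, serve below as the comparison. H3K27me3 covered 2350 members (96.1%) over their whole length and 34 over less than 50% of it. The members nearest to its edge overlapped H3K27me3 by 27, 31 and 48 bp, and the nearest peaks left outside lay 2, 13 and 18 bp away from it.

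The cells were CJ7, an established mouse ES cell line, kept with leukaemia inhibitory factor, 20% serum and a layer of primary mouse embryonic fibroblasts, and differentiated as hanging drops into embryoid bodies. Suz12 was profiled by CUT&RUN, in which a nuclease tethered to an antibody releases the bound chromatin fragments. The groups used were wild-type and EZH2-mutant ES cells and embryoid bodies at days 4 and 8, and CJ7 cells given dimethyl sulfoxide (DMSO) or the EZH2 inhibitor GSK343 at 4 µM from 3 days before differentiation until collection. The labels call the first cells mutant for EZH2 without naming the allele or the number of clones, and they do not say whether libraries with the same number came from the same culture. Each Suz12 list comes from 1 library, whereas the wild-type H3K27me3, Ring1B, Suz12 and Ezh2 lists were merged over the 3 stages by a rule that the labels do not state. IgG and mutant H3K27me3 profiles were not analysed here.

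Suz12 is a core subunit of Polycomb repressive complex 2 (PRC2), which it holds together and helps to bring to chromatin, and EZH2 or its relative EZH1 is the subunit that methylates lysine 27 of histone H3. The resulting mark, H3K27me3, is bound by CBX proteins of Polycomb repressive complex 1 (PRC1), whose catalytic subunits include Ring1B. In mammalian ES cells the usual sites of PRC2 are unmethylated CpG islands at the promoters of silent developmental regulators, above all the Hox clusters.

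The promoters at the members were rich in the dinucleotide CG, which reads the same on both strands and which PRC2 accessory proteins are known to favour. Of 993 distinct RefSeq promoter windows (build GRCm38.p6, the same assembly as the mm10 of the files; 250 bases before to 50 bases after a transcription start) whose start lay within 1000 bp of a member, 833 (83.9%) held at least 10 CG, with a median of 20. The same held for 519 of 702 windows (73.9%) near the other peaks only, with a median of 18, and for 14258 of all 32817 windows (43.4%), with a median of 7. At least 1 CG was present in 94.6% of all windows. Among 4610 windows inside H3K27me3 but with no member nearby, 2914 (63.2%) held 10 or more, with a median of 14. Of windows near members that the wild-type day 8 list shared and mutant library 1 lacked, 87.6% held at least 10 CG, with a median of 21, and of those near members found in neither other day 8 list 77%, with a median of 18. The 6 windows below, chosen for members that the results turn on, are each written 5′ to 3′ on the strand of its gene with CG in capitals. The windows of Cbx8 (chr11:119040864-119041163, minus strand), Hoxd9 (chr2:74697513-74697812, plus strand) and Foxd3 (chr4:99656049-99656348, plus strand) lie wholly inside a member. That of Barx1 (chr13:48662786-48663085, plus strand) enters a member by 24 bases. Those of Cdkn2a (chr4:89294570-89294869, minus strand) and Cdc42ep2 (chr19:5924767-5925066, minus strand) have their start 758 and 502 bp from a member. The number of CG is 24 for Cbx8, 20 for Hoxd9, 25 for Foxd3, 50 for Barx1, 45 for Cdkn2a and 17 for Cdc42ep2. Not every promoter at a member was rich in CG. The window of Hoxa9, not printed here, lies wholly inside a member of 13575 bp and holds 4 CG, below the median of 7 over all windows.
Cbx8: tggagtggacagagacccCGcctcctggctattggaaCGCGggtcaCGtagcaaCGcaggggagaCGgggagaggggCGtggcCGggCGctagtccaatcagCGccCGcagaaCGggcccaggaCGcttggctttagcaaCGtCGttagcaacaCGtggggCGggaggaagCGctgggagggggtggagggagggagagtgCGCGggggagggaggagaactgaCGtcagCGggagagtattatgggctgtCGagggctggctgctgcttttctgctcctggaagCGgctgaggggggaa
Hoxd9: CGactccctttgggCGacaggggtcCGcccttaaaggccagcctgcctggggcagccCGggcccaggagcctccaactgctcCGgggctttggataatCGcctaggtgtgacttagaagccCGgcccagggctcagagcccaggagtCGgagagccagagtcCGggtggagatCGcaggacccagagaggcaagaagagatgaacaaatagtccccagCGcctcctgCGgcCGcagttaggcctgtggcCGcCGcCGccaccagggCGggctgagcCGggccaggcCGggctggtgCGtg
Foxd3: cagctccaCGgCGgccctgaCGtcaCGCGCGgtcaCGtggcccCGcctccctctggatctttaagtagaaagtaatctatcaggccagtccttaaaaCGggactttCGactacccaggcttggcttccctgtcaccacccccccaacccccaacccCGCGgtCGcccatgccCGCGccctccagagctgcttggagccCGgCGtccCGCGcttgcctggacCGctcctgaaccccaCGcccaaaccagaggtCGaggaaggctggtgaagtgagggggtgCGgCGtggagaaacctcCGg
Barx1: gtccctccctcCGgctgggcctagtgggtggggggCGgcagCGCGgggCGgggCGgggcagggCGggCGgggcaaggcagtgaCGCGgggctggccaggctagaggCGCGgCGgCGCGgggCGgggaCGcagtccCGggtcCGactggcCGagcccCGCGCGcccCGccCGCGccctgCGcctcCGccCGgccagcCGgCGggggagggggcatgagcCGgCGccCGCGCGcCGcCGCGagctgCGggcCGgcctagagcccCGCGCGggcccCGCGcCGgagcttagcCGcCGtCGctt
Cdkn2a: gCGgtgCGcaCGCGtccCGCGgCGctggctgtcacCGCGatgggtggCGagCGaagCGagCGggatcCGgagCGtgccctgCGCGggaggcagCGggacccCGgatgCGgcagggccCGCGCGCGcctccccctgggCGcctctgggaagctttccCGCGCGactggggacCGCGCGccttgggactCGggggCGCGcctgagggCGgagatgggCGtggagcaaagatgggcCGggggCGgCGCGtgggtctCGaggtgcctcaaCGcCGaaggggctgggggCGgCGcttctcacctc
Cdc42ep2: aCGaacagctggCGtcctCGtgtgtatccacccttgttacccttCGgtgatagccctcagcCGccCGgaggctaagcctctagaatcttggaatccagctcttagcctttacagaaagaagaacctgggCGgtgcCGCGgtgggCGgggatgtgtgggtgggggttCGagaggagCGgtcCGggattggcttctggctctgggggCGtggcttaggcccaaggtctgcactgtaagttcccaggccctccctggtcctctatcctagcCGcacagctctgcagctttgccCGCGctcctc

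Peak lists and RNA libraries differed in ways that touch the results. The 9 Suz12 lists hold between 1000 and 8810 peaks. The shortest peak is 1001 bp in the 3 wild-type lists and 487 to 501 bp in the 6 mutant lists, so a wild-type peak has more length with which to meet a member. RNA-seq depth, recovered from the deposited values, was 7.17 to 21.2 M (mega) reads in the wild-type and mutant day 8 libraries and 16.4 to 22 M in those of DMSO and GSK343. Ezh2 RNA, which checks the labels only as far as the mutation lowers it, was at 18.3, 22.2 and 26.0 RPKM (reads per kilobase of gene, scaled to library size) in the mutant and 42.8, 41.4 and 45.8 in the wild type at day 8. Wild-type day 8 RNA library 3 stood apart from its group. The summed level of 12 pluripotent cell markers was 639 RPKM there, while wild-type libraries 1 and 2 had 66.8 and 66.6. The mutant libraries had 432, 1353 and 925 RPKM. The summed level of 12 mesoderm and cardiac markers was 17.1 RPKM in library 3, where the other wild-type libraries had 363 and 338. All 12 pluripotent markers, among them Pou5f1 and Nanog, exceeded 1 RPKM in that library and in every mutant library. Mutant library 1 differed from its group in the other direction. Its 12 mesoderm and cardiac markers summed to 249 RPKM, where mutant libraries 2 and 3 had 71.5 and 36.3. The 10 feeder fibroblast markers summed to 167 RPKM in mutant library 1 and 12.3 and 15.5 in the others, and to 293, 319 and 12 in wild-type libraries 1, 2 and 3. Endoderm markers, 12 in all, summed to 147, 165 and 21.9 RPKM in the wild type and to 309.5, 97.6 and 478 in the mutant, where 5 of the 12 were called higher by limma. The 5 neural markers with values, of 8 listed, summed to 12.7, 14.4 and 60.9 RPKM in the wild type and 15.3, 50.2 and 30.6 in the mutant. The part of these differences in the results at day 8 was not tested.

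Members recurred in wild-type day 8 embryoid bodies in a larger share than in the other mutant library of the same day. Of the 2445 members, 1436 (58.7%, exact 95% interval 56.8 to 60.7) overlapped a peak of wild-type day 8 library 2, and 134 (5.48%, 4.61 to 6.46) overlapped a peak of mutant day 8 library 1. The same shares of the other peaks were 6.65% and 0.397%. Read from the other side, 859 peaks of the wild-type list held a member, which is 32.6% of its 2639 peaks at H3K27me3. In the list of mutant library 1, 436 of 3322 peaks lay at H3K27me3. Of these, 160 (36.7%) overlapped mutant library 2 and 187 (42.9%) the wild-type list, against 23 of its 2886 peaks outside H3K27me3 (0.797%) that overlapped mutant library 2. These intervals cover counting error only, the lists differ in length and width, and with 1 library for each list no test was possible. The wild-type day 8 list covers 13.0 Mb and that of mutant library 1 covers 1.75 Mb. The wild-type list and the list of the members are both of library 2, so genotype and library number cannot be told apart here.

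**Figure D1:**
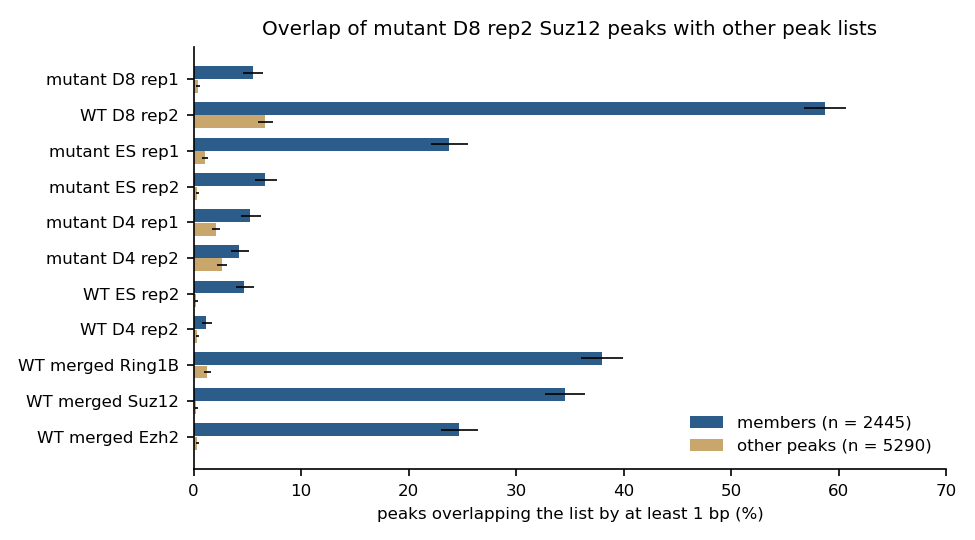
Share of the 2445 members (blue) and of the 5290 other peaks of the same list (tan) that overlapped each of 11 other peak lists by at least 1 bp; horizontal lines are exact 95% intervals for counting error. Members overlapped wild-type day 8 library 2 most often, at 58.7%, and mutant day 8 library 1 in 5.48%.

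In the other stages the members were best represented in mutant ES cell library 1, whose peaks met 581 of them (23.8%). Mutant ES cell library 2 met 163 (6.67%), and the mutant day 4 libraries met 129 and 104 (5.28% and 4.25%). In wild-type cells, ES cell library 2 met 115 members (4.70%) and day 4 library 2 met 29 (1.19%), the latter from a list of 1000 peaks. A total of 912 members (37.3%) appeared in none of the 8 other single-library Suz12 lists, 836 (34.2%) in the wild-type day 8 list and no other mutant list, and 696 (28.5%) in at least 1 other mutant list. Wild-type Suz12 library 1 of each stage had no peak list of its own and is not part of these counts.

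Only 16 members were present in all 5 other mutant libraries, and none in all 8 other single-library lists. Members at Hoxa10 and Hoxa11 (chr6:52228460-52250441), Hoxa7 and Hoxa9 (chr6:52214360-52227934), Hoxd9 and Hoxd10 (chr2:74686283-74700835), Hoxc9 and Hoxc10 (chr15:102970371-102982792), Hoxd8 (chr2:74705943-74707395) and Evx2 (chr2:74656045-74662428) belong to the Hox clusters. Outside the clusters were Tbx2, a T-box repressor; Ebf3, Skor1, Lbx1, Six3, Sp9 and Neurod2, regulators of neural or muscle cell types; and Foxf1 with its divergent noncoding neighbour Fendrr, both needed in lateral mesoderm. The list also held the member over Cbx8, which encodes a subunit of PRC1, and its neighbour upstream of the gene, with no gene within 1000 bp (chr11:119050911-119060030). Of these 16 members, 15 measured 6008 bp or more, and the one at Hoxd8 measured 1453 bp.

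Wider members were found again in a larger share. Most members were narrow, since 1316 (53.8%) had the 501 bp minimum width of the list, and the widest, at Hoxa10 and Hoxa11, spanned 21982 bp. Of those 501 bp wide, 539 (41.0%) overlapped the wild-type day 8 list and 12 (0.912%) mutant day 8 library 1. Of the 246 wider than 2000 bp, 244 (99.2%) overlapped the wild-type list and 84 (34.1%) mutant library 1. A wider peak has more bases with which to overlap, and how much of the trend this accounts for was not tested. At equal width the other peaks recurred less, with 5.36% of those 501 bp wide in the wild-type list. Among the other peaks 672 measured 502 to 1000 bp, 47 measured 1001 to 2000 bp and 1 was wider.

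**Figure D2:**
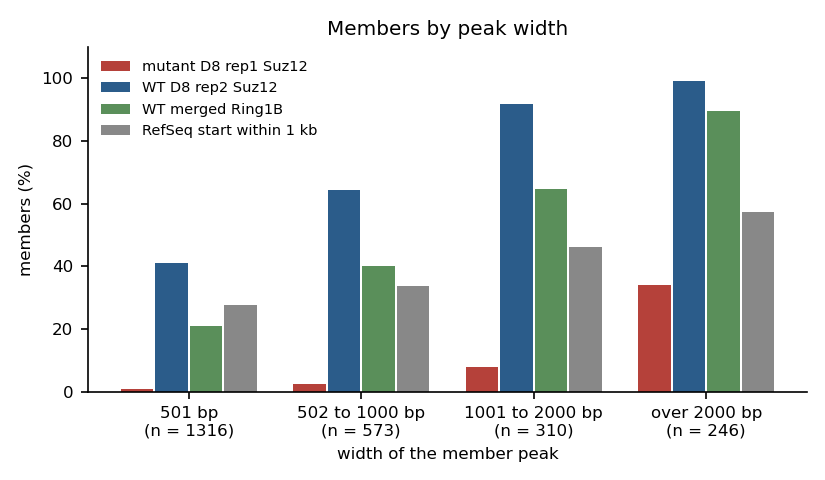
Share of members in 4 classes of peak width (number of members under each) that overlapped mutant day 8 library 1 (red), wild-type day 8 library 2 (blue) or the merged wild-type Ring1B list (green), or that had a RefSeq transcription start within 1 kb (grey). All 4 shares are highest in the widest class, where 99.2% overlapped the wild-type list and 34.1% mutant library 1.

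The wild-type lists of PRC1 and PRC2 subunits met a part of the members. The merged wild-type Ring1B list met 928 members (38%), the Suz12 list 844 (34.5%) and the Ezh2 list 603 (24.7%), and all 3 met 471. Of the other peaks, 1.25%, 0.265% and 0.321% met these lists. Those low shares are largely set by the choice of members, since 69.6% of the Ring1B peaks, 92.1% of the Suz12 peaks and 90.9% of the Ezh2 peaks lay at H3K27me3. The merged Suz12 list draws on wild-type day 8 cells, per the labels, and is not independent of the wild-type day 8 list. The 123 members found in both other day 8 lists had a median width of 3083 bp, and 108 of them (87.8%) carried Ring1B. The 1313 found in the wild-type list and not in mutant library 1 had a median width of 673 bp, and 739 (56.3%) carried Ring1B. The 998 found in neither were mostly at the minimum width, and 80 (8.02%) carried Ring1B, 15 (1.5%) wild-type merged Suz12 and 8 (0.802%) Ezh2. The remaining 11 members overlapped mutant library 1 and not the wild-type list.

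Among the members shared with the wild-type list and absent from mutant library 1, the widest lay at Prdm12 (8355 bp, chr2:31634660-31643014), Zfp503 (7470 bp), Nkx2-3 (7381 bp), Nr2e1 (7114 bp) and Sp5 (6345 bp). All 5 genes encode transcriptional regulators of development, and all 5 members overlapped the merged Ring1B and Suz12 lists. At the other end, no member of the group found in neither list exceeded 2767 bp.

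Members gathered in large H3K27me3 domains. Of 11884 wild-type H3K27me3 peaks, 1454 (12.2%) held a member, and these had a median width of 14.0 kb against 4.17 kb for those without. In 978 of them there was 1 member, while 56 held 5 or more and together 419 overlaps with members. The 4 Hox clusters came first, with 25 members in the Hoxb domain, 25 in Hoxd, 24 in Hoxa and 23 in Hoxc. Between 22 and 25 of the members in each of these 4 domains overlapped the wild-type day 8 list, and 4 to 6 overlapped mutant library 1. They were followed by the domain of Nfix and Lyl1 on chromosome 8 with 14, of Neurod2 with 11 and of Hoxb13 with 10. A wider domain gives more room for members, and its share in these counts was not tested.

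Most genes of the classes that Polycomb is known for lay at a member. By gene span within 1000 bp, a member was found at 37 of 39 Hox genes, all but Hoxc4 and Hoxd4, at 79 of 97 other homeobox genes and at 63 of 77 T-box, forkhead, GATA, SOX and related regulators. The share was 38 of 68 for signalling ligands, receptors and antagonists and 14 of 27 for neural bHLH genes. Of all 21900 protein-coding genes of the RefSeq table, 1360 (6.21%) lay at a member. Members were chosen at H3K27me3, which in itself favours these classes. Their shares at H3K27me3 peaks without a member were not counted. Among 7 inhibitors of cyclin-dependent kinases a member was found at Cdkn2a, Cdkn2c and Cdkn1c and at none of Cdkn2b, Cdkn2d, Cdkn1a and Cdkn1b. Of 13 genes for PRC2 subunits and cofactors, Phf19 was the only one with a member. None of 12 pluripotent cell markers had a member. The lineage markers were mixed, with members at Gata4, Gata6, Sox17, Foxa2 and Amn among 12 endoderm markers and at T, Hand1, Hand2, Tbx5 and Nkx2-5 among 12 mesoderm and cardiac markers.

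Chromosomes 8 and 11 carried 964 members (39.4%), although they hold 18.6% of the wild-type H3K27me3 peaks. Per Mb of H3K27me3 peak there were 59.7 members on chromosome 8 and 57.9 on chromosome 11, against 14.5 to 27.5 on the other autosomes, with a median of 18.6, and 4.34 on the X. The other peaks leaned further to these chromosomes, which held 51.8% of them, and the wild-type day 8 list had 18.9% and 29.5% of its peaks there. Of the members on chromosomes 8 and 11, 47.9% overlapped the wild-type day 8 list and 26.6% the Ring1B list, against 65.8% and 45.4% of the 1481 members on the remaining chromosomes. With these chromosomes left out, 6.14% of members overlapped mutant library 1.

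**Figure D3:**
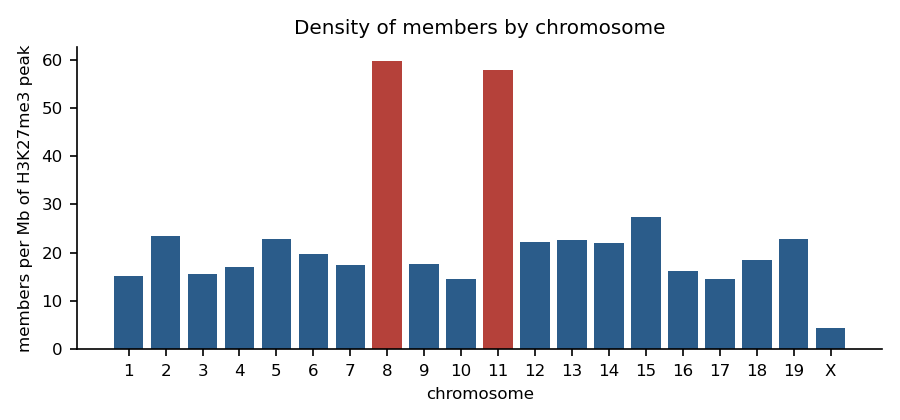
Number of members per Mb of wild-type H3K27me3 peak on each chromosome, with chromosomes 8 and 11 in red. These stand at 59.7 and 57.9, and the other autosomes between 14.5 and 27.5.

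Transcription starts lay within 1000 bp of 823 of the 2391 members (34.4%) on chromosomes for which promoters were at hand, against 10.5% of the other peaks. These members are linked below to 854 genes, 634 of them protein coding, and the other peaks alone to 593 genes. Of the linked genes 473 were in the wild-type and mutant RNA table and 420 passed the filter on low values, so what follows covers the tested genes and not all that lie at members. The authors' deposited table calls 482 of 482 linked genes it holds PRC2 targets, against 68 of 450 (15.1%) near other peaks and 4777 of all its 14833 genes (32.2%). The labels do not state the rule behind that call, and it may rest on the same H3K27me3 data.

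Genes linked to members were expressed at low levels in all groups. Their median was 1.11 to 2.03 RPKM over the 3 wild-type day 8 libraries and 1.13 to 2.23 in the mutant, where the median of all genes in the table was 6.53 to 7.13. Genes linked to the other peaks had medians of 10.9 to 12.6 RPKM. Low levels were not particular to members. Among tested genes, the median wild-type level at day 8 was 2.65 RPKM for linked genes. It was 2.16 RPKM for genes with a start in H3K27me3 and no member nearby. Linked genes at members in both other day 8 lists had medians of 0.595 to 1.83 RPKM in wild-type and 0.730 to 1.6 RPKM in mutant embryoid bodies. Those at members of the wild-type list not found in mutant library 1 had 0.858 to 1.51 and 1.03 to 1.75 RPKM, so the ranges of both classes overlapped. Those at members in neither list had 1.95 to 3.06 RPKM in the wild type, above both classes, and 1.72 to 2.96 RPKM in the mutant. The difference between the classes was not tested. In these bulk samples fewer cells of a type and less RNA per cell cannot be told apart.

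In mutant against wild-type embryoid bodies at day 8, few of the linked genes changed. Of 420 tested, 10 were higher and 1 was lower (2.62%) by limma with Benjamini-Hochberg adjustment over all 14180 genes tested, of which 1.51% were called, 1.3% as higher and 0.212% as lower. The median difference on the log2(RPKM + 1) scale was -0.06 for linked genes and -0.02 for all genes. Genes with a start in H3K27me3 and no member nearby gave much the same share, with 50 higher and 5 lower of 1858 (2.96%). Without wild-type library 3, the library that stood apart, 31 linked genes were higher and 45 lower of 420 (18.1%), against 9.20% of all genes and 16.0% of the genes in H3K27me3 without a member. Leaving out wild-type library 1 or 2 left 1 call each (0.248% of linked genes both times), where 0.114% and 0.150% of all genes were called. Leaving out mutant library 1, 2 or 3 gave 24, 3 and 2 (5.99%, 0.719% and 0.477%), against 3.61%, 0.346% and 0.240% of all genes.

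Cdkn2a, which encodes the cell cycle inhibitors p16INK4a and p19ARF and is a classical PRC2 target, was the only named call kept without each library in turn. Its level was 31.6, 23.8 and 10.5 RPKM in the mutant and 1.49, 1.69 and 1.05 in the wild type at day 8. All mutant libraries lay above all wild-type libraries, with a log2 difference of 3.14 (SE 0.38, adjusted p = 0.0015 by limma), and the call held in all 6 such fits. It was lost when only the wild-type and mutant day 8 libraries entered the fit. Its member is a 501 bp peak (chr4:89295377-89295877) that overlapped the wild-type day 8 list and merged Ezh2, but no other mutant library and neither Ring1B nor merged Suz12. Its neighbour Cdkn2b, which encodes p15INK4b and had no member, stood at 7.21, 4.54 and 4.55 RPKM in the mutant and 0.461, 1.20 and 0.571 in the wild type (log2 difference 1.88, SE 0.39, adjusted p = 0.0311 by limma).

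The other linked genes that rose named by the rule were Zic1, Dmrt3, Pde8a, Tmem191c, Grtp1, Map7 and Cdc42ep2. Zic1, a zinc finger regulator of neural development at a 3531 bp member, was at 3.13, 1.26 and 0.884 RPKM in the mutant and 0.0523, 0.0715 and 0.119 in the wild type. Dmrt3, a DM domain transcription factor of spinal interneurons, was at 2.68, 2.56 and 2.59 RPKM against 0.659, 0.451 and 0.699. The 3 libraries of each group did not overlap for either gene. Pde8a, a cyclic AMP phosphodiesterase, was at 5.45, 5.51 and 9.22 RPKM against 0.649, 0.608 and 2.42, the highest wild-type value being that of library 3. The only fall was Bhlhe41, a circadian bHLH repressor, at 2.61, 1.78 and 1.64 RPKM in the mutant and 6.90, 5.59 and 4.49 in the wild type (log2 difference -1.14, SE 0.24, adjusted p = 0.0334 by limma). Apart from Cdkn2a, each of the named calls was lost in at least 3 of the 6 fits that left out 1 library. The remaining rises, Tex2 and Gm38426, fall outside the naming rule. Of the members behind these genes, those at Map7 and Cdc42ep2 were found in neither other day 8 list.

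Genes linked to members in both other day 8 lists gave no call at day 8, but few were tested. None of the 30 passed, their median log2 difference being -0.22, and no Hox gene among 4 linked and tested did. Of all genes 1.51% were called, so sets this small cannot be told from all genes by their calls. Hand2, a bHLH factor of heart and limb, lay at members of the wild-type list that mutant library 1 lacked, outside that class. It stood at 57.5, 2.23 and 0.621 RPKM in the mutant and 97.3, 80.7 and 0.0890 in the wild type, so the groups overlapped through wild-type library 3. Without that library the log2 difference was -3.73 (SE 0.94, adjusted p = 0.0235 by limma), and with it -1.61 (SE 1.36, adjusted p = 0.676). Cbx8, at a member in both other lists, was also not called with all libraries but called without that one, at 3.06, 1.51 and 1.59 RPKM in the mutant and 5.24, 5.5 and 1.40 in the wild type. Its log2 difference was -0.63 (adjusted p = 0.409 by limma) with all libraries and -1.10 (adjusted p = 0.0134) without wild-type library 3. The marker sums given above differ between that library and the rest of its group, and their part in these values was not tested.

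At the earlier stages still fewer linked genes changed. At day 4, Cdkn2a and Barx1 were higher in the mutant and none of the 420 was lower (0.476%), where 0.0494% of all genes were called, 0.0282% as higher and 0.0212% as lower. Cdkn2a was at 12, 16.9 and 8.07 RPKM in the mutant and 1.24, 1.54 and 1.34 in the wild type (log2 difference 2.44, SE 0.38, adjusted p = 0.0215 by limma). Barx1, a homeobox gene of craniofacial and stomach mesenchyme with 2 members (chr13:48661697-48662322 and chr13:48663062-48664340), was at 1.61, 1.59 and 1.84 RPKM against 0.480, 0.428 and 0.142 (log2 difference 1, SE 0.15, adjusted p = 0.0128). The call of Cdkn2a was lost without wild-type library 1 or 2, without mutant library 1 or 2, and with only the groups compared. That of Barx1 was lost without wild-type library 2, without mutant library 2 or 3, with a pseudocount of 0.1 and with only the groups compared. In ES cells no linked gene passed in limma, where 0.0917% of all genes were called (0.0635% higher, 0.0282% lower), and 38 of the 420 (9.05%) had an unadjusted p under 0.05, as had 857 of all 14180 (6.04%). Cdkn2a was at 9.39, 15.2 and 8.51 RPKM in mutant ES cells and 3.16, 5.37 and 9.11 in wild-type ones, so the groups overlapped there.

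Inhibition of EZH2 with GSK343 gave more calls than the mutation, at linked genes and at all genes alike, and more linked genes were lower than higher. The calls come from separate fits with unlike group sizes and spread, so their numbers do not compare the strength of inhibitor and mutation. Without wild-type library 3 the mutant comparison called 18.1% of linked genes and 9.20% of all genes. In GSK343 against DMSO embryoid bodies at day 8, 165 of 430 linked genes were lower (38.4%) and 68 higher (15.8%) by limma, where 16% of all 14016 genes tested were lower and 15.6% higher, 31.6% in all. The median log2 difference was -0.28 for linked genes and 0.00 for all genes. Genes near the other peaks gave 46 lower and 63 higher of 448. Genes with a start in H3K27me3 and no member nearby stood in between, with 497 lower (27%) and 356 higher (19.3%) of 1841 and a median of -0.05. The filter asked for 0.5 RPKM in at least 2 libraries of any group. A gene could thus enter through the DMSO day 8 pair alone and then only come out lower. One that entered through the GSK343 day 8 pair alone could only come out higher. With both group means at or above 0.5 RPKM, 300 linked genes were left, of which 105 were lower and 47 higher. The share of all genes under that condition was not counted. With only the DMSO and GSK343 day 8 libraries in the fit, 123 of 388 linked genes were lower (31.7%) and 40 higher (10.3%). Of all genes, 10.4% were lower and 10.3% higher in that fit. Fewer linked genes than in the main fit were also called without DMSO library 1 or 2, which leaves 1 library in that group.

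Beside these counts stand large differences in cell type markers. The summed level of the 12 pluripotent cell markers was 1346 and 1705 RPKM in the GSK343 libraries and 163 and 131 in the DMSO libraries. The 12 mesoderm and cardiac markers summed to 24.2 and 23.4 RPKM against 297 and 207, the 12 endoderm markers to 39.0 and 6.37 against 224 and 157, and the 10 feeder fibroblast markers to 9.52 and 16.0 against 94.3 and 191. The 5 neural markers with values, of 8 listed, summed to 81.6 and 70.4 RPKM with GSK343 against 17.5 and 17.9 with DMSO. The part of these differences in the results at linked genes was not tested.

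**Figure D4:**
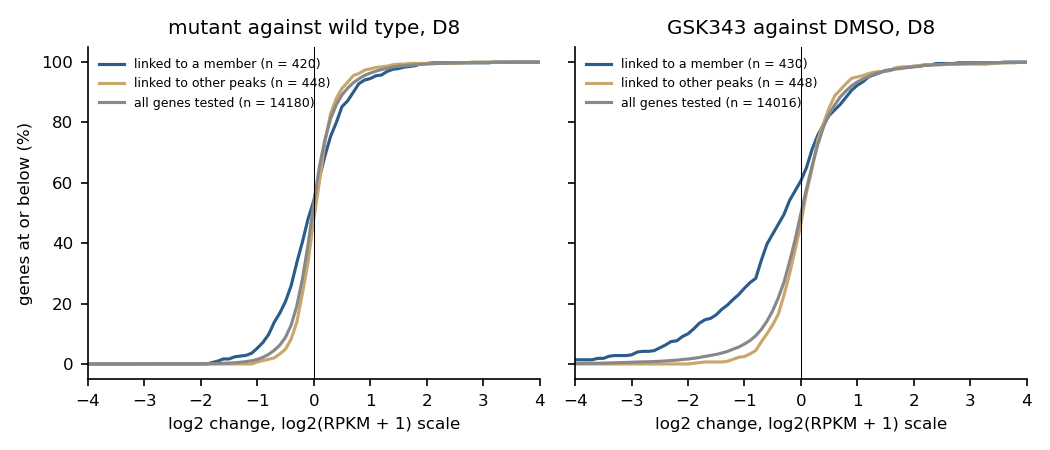
Cumulative share of genes (vertical axis, %) at or below a given difference on the log2(RPKM + 1) scale (horizontal axis) for mutant against wild type (left) and GSK343 against DMSO (right) at day 8. Genes linked to members are blue, genes linked to the other peaks tan and all genes tested grey; on the right the blue curve lies left of the others, with a median of -0.28 against 0.00 for all genes.

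The genes lower with GSK343 were most frequent at members found in both other day 8 lists. Of all genes tested, 16% were lower and 15.6% higher. Of 35 tested genes linked to members in both other day 8 lists, 24 were lower (68.6%) and 5 higher. At members of the wild-type list not found in mutant library 1 there were 90 lower (37.2%) and 40 higher of 242, and at members in neither list 50 lower (33.1%) and 23 higher of 151. The difference between these classes was not tested. Genes at members in both lists had medians of 1.52 and 2.06 RPKM in the DMSO day 8 libraries. In DMSO ES cells their medians were 0.431 and 0.474 RPKM, and at day 4 0.333 and 0.303. Some of them may thus have passed the filter through the DMSO day 8 pair alone, where they could only come out lower. Counts by class for genes with both group means at or above 0.5 RPKM were not made. On chromosomes 8 and 11, 41 linked genes were lower and 33 higher of 157, and elsewhere 124 were lower and 35 higher of 273.

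Most Hox genes tested were lower with GSK343. Of 8 linked and tested, 7 were lower and none higher, with a median log2 difference of -1.51, and of all 15 Hox genes tested 11 were lower, where 16% of all genes were. Hox genes silent outside the DMSO day 8 pair would pass the filter through that pair alone and could only come out lower. How many did so was not counted. Hoxb13, with members by gene span, did not pass, at 0.0996 and 0.157 RPKM against 0.0445 and 0 (log2 difference 0.14, SE 0.12, adjusted p = 0.421 by limma). Hoxd9 was at 0.0216 and 0 RPKM with GSK343 and at 2.90 and 2.15 with DMSO (log2 difference -1.79, SE 0.13, adjusted p = 5.85e-06 by limma). Hoxd8 was at 0.147 and 0.150 RPKM against 4.17 and 3.99. Of the other homeobox genes, 9 of 20 were lower and 3 higher, where 15.6% of all genes were higher. Msx2, a homeobox gene of limb and craniofacial mesenchyme, was at 1.11 and 0.673 RPKM against 38.6 and 35.9, and Cdx2, which specifies trophoblast and posterior tissue, at 0.657 and 0.126 against 24.1 and 10.5. Gbx2, a homeobox gene of the midbrain-hindbrain boundary that is also active in pluripotent cells, moved the other way, with 11.3 and 7.35 RPKM against 1.52 and 1.15.

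Among T-box, forkhead, GATA, SOX and related regulators 12 of 20 linked genes were lower and 3 higher. Of all genes 16% were lower and 15.6% higher. Of genes with a start in H3K27me3 and no member nearby, 27% were lower and 19.3% higher. The limit of the filter given for the Hox genes holds here too. Hand2 was at 0.264 and 0.0482 RPKM with GSK343 and at 42.2 and 50.3 with DMSO (log2 difference -5.35, SE 0.14, adjusted p = 1.49e-08 by limma). Tbx20, a T-box factor of the heart, was at 0.811 and 0.696 RPKM against 23.5 and 19.2, and Foxc1, a forkhead factor of mesenchyme, at 0.285 and 0.297 against 7.11 and 4.64. Foxd3, a forkhead factor of pluripotent cells and neural crest with 2 members of 501 bp, rose to 23.4 and 10.4 RPKM from 0.616 and 0.216 (log2 difference 3.57, SE 0.36, adjusted p = 5.82e-05). T, the mesoderm regulator Brachyury, was at 9.09 and 0.395 RPKM against 37.1 and 10.8 and missed the threshold (log2 difference -2.50, SE 0.90, adjusted p = 0.0584 by limma).

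Of the listed ligands, receptors and antagonists, 10 of 16 linked genes were lower and 1 higher, beside 16% and 15.6% of all genes. These counts share the limit of the filter. Fgf3, a ligand of the fibroblast growth factor family, was at 1.14 and 0.767 RPKM with GSK343 and at 12.3 and 5.40 with DMSO. Fgfr3, Igf2 and Nrp1 are not in that list and are not part of its count, but were named as 3 of the 8 largest fitted falls under the naming rule. Fgfr3, a receptor for fibroblast growth factors, was at 0.539 and 0.438 RPKM against 24.3 and 38.1, and Igf2, an imprinted growth factor, at 3.78 and 6.62 against 116 and 173. Nrp1, a co-receptor for semaphorins and vascular endothelial growth factor, was at 1.67 and 0.319 RPKM against 101 and 136 (log2 difference -5.98, SE 0.33, adjusted p = 1.08e-06 by limma). In each of these genes both DMSO libraries lay above both GSK343 libraries.

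Polycomb genes and cell cycle inhibitors with a member were split. Cbx8 fell from 8.48 and 8.60 RPKM to 1.40 and 1.59 (log2 difference -1.94, SE 0.18, adjusted p = 3.65e-05 by limma), and Pcgf5, which encodes another PRC1 subunit, from 42.3 and 30.7 to 14.0 and 18.1. Cdkn2a rose from 3.54 and 2.91 RPKM to 15.4 and 14.5 (log2 difference 1.92, SE 0.26, adjusted p = 0.00040 by limma), while Cdkn2c, which encodes p18INK4c, fell from 1.57 and 3.44 to 0.585 and 1.10. All 3 linked neural markers tested rose, where 15.6% of all genes were higher. Tubb3, the neuronal beta-tubulin, went from 7 and 6.66 RPKM to 49.95 and 55.3, Sox1 from 0.347 and 0.692 to 2.81 and 1.72, and Pax6 from 0.396 and 0.132 to 0.859 and 0.713. The calls of Pax6 and Cdkn2c were lost without DMSO library 2, without GSK343 library 1 and with only the groups compared, and that of Sox1 without DMSO library 1. Further rises were Upp1, uridine phosphorylase, at 348 and 505 RPKM against 105 and 65.7, Rasgrp2, an activator of Rap GTPases, at 5.81 and 8.96 against 0.377 and 0.802, Meioc, a meiotic regulator, at 9.47 and 7.02 against 1.14 and 1.07, and Grtp1 at 19.4 and 35.2 against 5.72 and 6.96.

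**Figure D5:**
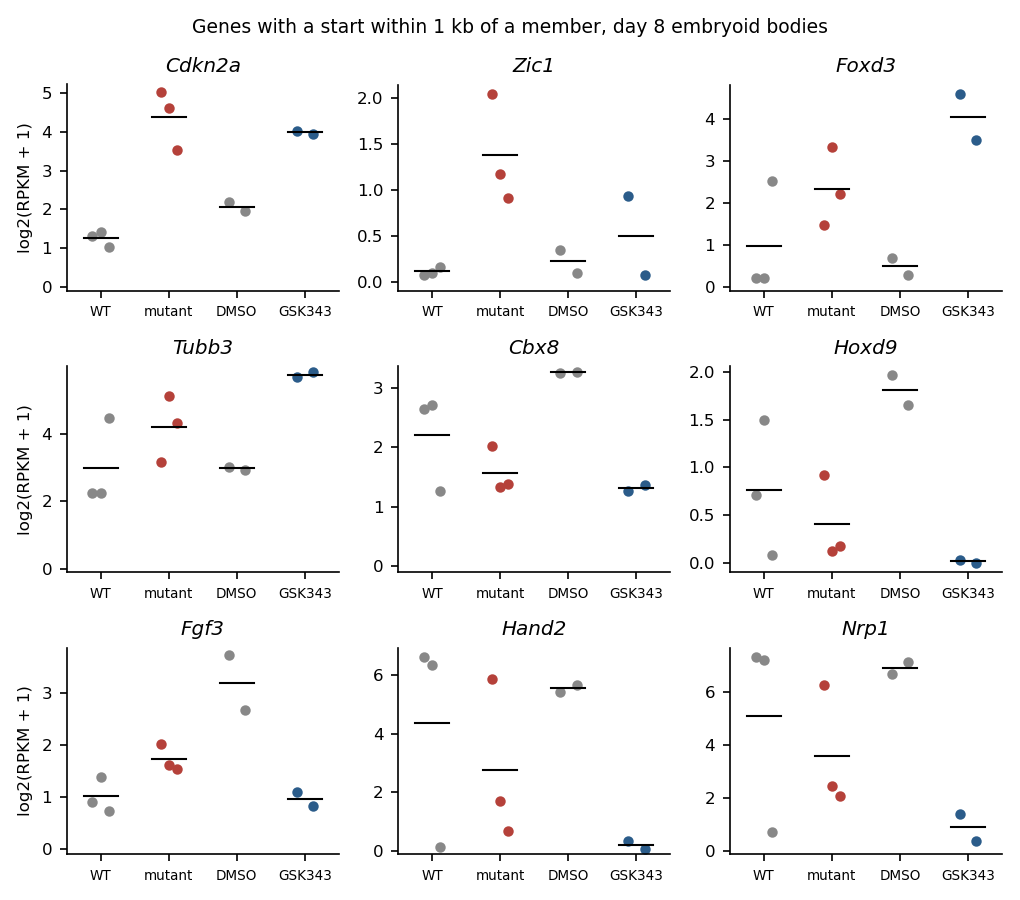
Levels of 9 genes with a start within 1 kb of a member in day 8 embryoid bodies, as log2(RPKM + 1), with 1 point for each library and a line at the group mean; wild type and mutant have 3 libraries, DMSO and GSK343 have 2, and each panel has its own scale. Cdkn2a is higher in every mutant and GSK343 library than in its controls, while wild-type library 3 lies below all mutant libraries for Hand2, Nrp1 and Cbx8.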

How the data were processed

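The peak positions of the 9 Suz12 lists and 4 merged wild-type lists are those the authors deposited. Bowtie2 2.3.4.3 and HOMER 4.10.3 on build mm10 are named for them per the submitters' processing notes, without parameters. The score column in the deposited peak files does not vary and was not used. RNA values are RPKM as deposited by the authors, with edgeR, featureCounts 1.6.1, STAR 2.5.3 and HOMER named per the submitters' processing notes. Neither annotation nor strand setting is stated, so overlapping or antisense genes may share reads. The authors' deposited table also gave the PRC2_target call, and 0 per-sample columns were left aside.

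Overlaps were taken as at least 1 bp, with exact Clopper-Pearson intervals at 95%, in Python 3.11.15. Linked genes have a RefSeq start within 1000 bp of a member, and a start was found for 11603 of 14772 genes (wild type and mutant) and 11466 of 14607 (DMSO and GSK343). Positions are printed 1-based. Chromosome 18 had no promoter windows. RPKM were tested as log2(RPKM + 1) with limma 3.58.1 in R 4.3.3 (lmFit, contrasts.fit, eBayes with trend), all groups of a table in 1 fit, for genes that reached 0.5 RPKM in a number of libraries no smaller than the smallest group. P-values were adjusted by Benjamini-Hochberg over all genes tested, with a threshold of 0.05, and the fit was tested on simulated data. Fold differences on this scale understate changes of low genes. Nothing in the labels says that libraries came from separate cultures, so p-values measure only the spread between them, which may be technical. Low values in both tables are whole multiples of 1 step per library, which gave the depths.

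Named genes are, among linked genes past the threshold in a comparison, the 8 largest rises and 8 largest falls whose groups did not overlap and whose higher group averaged 1 RPKM or more, a fixed set with Cdkn2a, Cdkn2b, T, Pax6, Barx1 and others, and the linked members with the smallest p of each gene list. The members and lists were chosen with earlier results of these data known. Same-numbered day 4 libraries deviated together (correlations 0.637, 0.290 and 0.806), so the numbers may mark pairs there. The results given above for every stage come from a fit without a term for such pairs. A replicate block shared by all stages was run only as an alternative. Alternatives tried were other overlap rules, wider peaks only, other link windows, pseudocount 0.1, no filter, only the groups compared, a replicate block and leaving out each library. The count of members at genes for PRC1 subunits is not reported here.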

Additional observations from a re-analysis of the deposited data

How the results depend on the processing

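Overlap shares depended on width and on the overlap rule. The share of members in mutant day 8 library 1 was 0.818% when at least 50% of the member had to be covered and 2.29% when its centre had to lie inside the other peak, against 5.48%, and 10.8% among the 1129 members wider than the list median. With those wider members the shares were 79.5% for wild-type day 8 library 2, 57.7% for Ring1B, 55.2% for Suz12 and 42.2% for Ezh2. Without chromosomes 8 and 11, an alternative chosen after seeing the data, they were 65.8%, 45.4%, 42.2% and 31.0%.

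Counts of linked genes called at day 8 ran from 1 to 76 when 1 library was left out, and were 0 with only the groups compared, 18 with starts within 5000 bp and 25 by gene span. At day 4 they ran from 0 to 4, with 0 for only the groups compared and 1 with a pseudocount of 0.1. In ES cells they were 0 without each library in turn, 1 within 5000 bp and 2 by gene span. For GSK343 they ran from 139 to 225, with 480 by gene span; higher calls ran from 41 to 68, with 40 for only the groups compared, 113 within 5000 bp and 159 by gene span, and lower calls from 98 to 168, with 321 by gene span.

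A replicate block gave 17 calls at day 8 (4.05%, where all genes gave 4.34%), 3 at day 4, 1 in ES cells and 268 with GSK343. Same-numbered libraries correlated at 0.746, -0.26 and 0.635 at day 8 and 0.632, 0.0494 and 0.655 in ES cells, so there the number is no sign of pairing. Only the day 4 numbers met the rule for pairs, and the block changed no call of a named gene at day 4. Each list rests on 1 library, and the depth of those libraries is unknown.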
